A study of Mus musculus with 3 samples.

Results

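The haemoglobin-rich erythroblasts of mouse bone marrow were chosen by measured RNA content, as the cell barcodes in which the 4 adult globin genes Hba-a1, Hba-a2, Hbb-bs and Hbb-bt made up at least 30% of all unique molecular identifiers (UMIs, one per captured RNA molecule). S100a8 and S100a9, the abundant RNAs of neutrophils, had to stay under 3% of UMIs, and no UMI of the B cell gene Cd79a was allowed. A barcode needed 300 genes and 500 UMIs or more, with no more than 10% of UMIs from mitochondrial genes. The rule found 1398 cells among 71014 kept barcodes. They were 820 of 25053 barcodes in the library Sham, 319 of 23455 in MI and 259 of 22506 in MI-E.

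All 3 libraries came from C57BL/6J mice, from femur and tibia marrow enriched on a Ficoll density gradient, a step that removes most mature red cells. Sham stands for sham surgery, MI for myocardial infarction after ligation of the left anterior descending coronary artery, and MI-E for infarction with an agent that the labels give only as EMPA. The number, sex and age of the mice, the time after surgery and the dose of EMPA are not given in the sources used here. Each group is 1 library, so no difference between groups has a replicate check. Intervals below are 95% intervals, or wider for ratios of shares, that cover counting error only, and no p-value was computed.

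Erythroblasts are the nucleated precursors of red cells. Under erythropoietin, a hormone made by the kidney when oxygen is short, they divide a few times while they fill with haemoglobin, take up iron through the transferrin receptor, build heme in the mitochondrion and then expel nucleus and organelles. The globin share of a cell's RNA climbs along this path, so among these cells it also orders them roughly by maturity.

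The marker genes were found in nearly every member. A UMI of Alas2, the first enzyme of erythroid heme synthesis, was found in 97.0% of Sham members, 98.4% of MI members and 97.7% of MI-E members. In cells with 3 or more UMIs of Cd79a, which should lack it, the shares were 3.30%, 1.77% and 1.23%. Slc4a1, the anion exchanger band 3 of the red cell membrane, had a UMI in 99.5%, 99.4% and 98.8% of the members. The members had more UMIs than the Cd79a cells, with medians of 3415 against 1690 in Sham, 2973 against 1314 in MI and 2827 against 1343 in MI-E.

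Barcodes just under the globin threshold also carried Alas2. In Sham, 45 barcodes lay at 25 to 30% globin and 33 at 30 to 35%, with Alas2 in 93.3% and 97.0%. Ptprc, the leukocyte antigen CD45, had a UMI in 60% of the former and in 60.6% of the latter. In MI the Ptprc shares were 35.1% of 37 barcodes and 19.2% of 26, and in MI-E 36% of 25 and 29.4% of 17.

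RNA of other cell types was present in the members and was not the same in the 3 libraries. Levels here and below are CPM, that is UMIs summed over the members, per 1000000 of their UMIs outside the haemoglobin chains. Where 3 values follow each other they are in the order Sham, MI and MI-E. The 9 monocyte markers together stood at 4477 CPM in Sham, against 2628 in MI and 3775 in MI-E, which is 45.4%, 29.2% and 44.3% of their level in all other cells. They lay mostly in cells with 30 to 50% globin, at 8809, 3584 and 5590, against 775, 945 and 717 in cells with 70 to 90%. The 8 neutrophil markers other than S100a8 and S100a9 ran the other way across libraries, at 735, 1821 and 1244. The 9 B lineage markers were at 892, 537 and 488, and the 6 basophil and mast cell markers at 601, 34.0 and 16.2. The Sham value of the latter rests on few cells. Of 820 Sham members, 14 had 2 or more UMIs of these markers, and most UMIs of Prss34 and of Mcpt8 lay in 1 cell each. The 9 T and natural killer cell markers were at 64.5, 29.7 and 70.2, with Trac, Cd8a, Klrb1c and Ncr1 at 0 in MI and Cd3e, Cd3g and Cd4 at 0 in MI-E. The 8 megakaryocyte markers were at 40.7, 63.7 and 54.0, with Gp1bb, Gp6 and Treml1 at 0 in every library. Island macrophage markers, of the cells that erythroblasts cling to as they mature, were at 118, 242 and 78.3. Granulocyte-monocyte progenitor markers were at 301, 353 and 413 and stem cell markers at 18.7, 38.2 and 13.5. Plasma cell markers were at 138, 91.4 and 111, stroma and endothelium markers at 25.4, 34.0 and 13.5, and plasmacytoid dendritic cell markers, which include the interferon gene Bst2, at 913, 408 and 256. Members with 10 or more UMIs over the neutrophil, monocyte, B, T and natural killer, megakaryocyte and island macrophage markers were 67 of 820 in Sham, 29 of 319 in MI and 18 of 259 in MI-E. Without them the monocyte sum was 484, 421 and 434 CPM. Basophil markers were not part of this count and stayed at 683, 41.0 and 9.95.

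**Figure D1:**
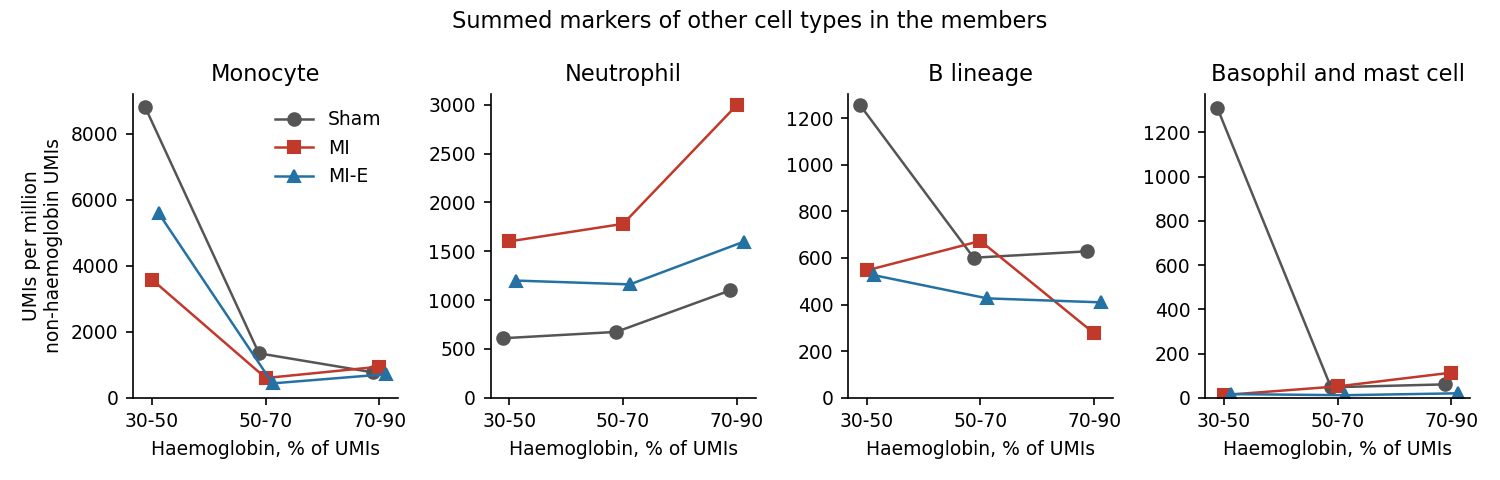
Summed levels of markers of 4 other cell types in the erythroblasts (vertical axis, CPM of non-haemoglobin UMIs) by the globin share of the cell (horizontal axis, % of UMIs), 1 line per library. Monocyte markers are concentrated in the 30 to 50% cells of all 3 libraries, and basophil and mast cell markers in those of Sham. The latter rest on few cells, with 2 or more such UMIs in 14 of 820 Sham members.

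Sham members held 3011789 UMIs, MI members 1021343 and MI-E members 800043, of which 1179000, 470715 and 370587 were not haemoglobin. Whole libraries held 99657072 to 127330601 UMIs. Between 156 and 176 barcodes recurred in a pair of libraries, and no member's barcode was a member in another library.

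Haemoglobin-rich erythroblasts took a larger share of the Sham library than of either infarct library. They made up 3.27% of kept barcodes in Sham (3.06 to 3.50), 1.36% in MI (1.22 to 1.52) and 1.15% in MI-E (1.02 to 1.30). The share was 2.41-fold lower in MI than in Sham (2.02 to 2.88) and 2.84-fold lower in MI-E than in Sham (2.35 to 3.45). MI-E and MI differed by 1.18-fold, with an interval of 0.936 to 1.49 that includes no difference. With no gene minimum the shares were 1.84% in MI (1.67 to 2.02) and 1.32% in MI-E (1.18 to 1.48), whose intervals do not overlap. A share depends on what else is in the library. Barcodes with S100a8 and S100a9 under 3% were 20907 of 25053 in Sham, 12822 of 23455 in MI and 14855 of 22506 in MI-E, and over these alone the erythroblasts were 3.92%, 2.49% (2.23 to 2.77) and 1.74% (1.54 to 1.97), so that the MI and MI-E intervals do not overlap. Ficoll enrichment can also set such a share, and its part was not tested. The Cd79a condition removed 237 of 1057 barcodes in Sham, 28 of 347 in MI and 29 of 288 in MI-E. Without it the shares were 4.22%, 1.48% and 1.28%.

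Within the members, which were chosen by their globin share, the distribution of that share is given as a description only. Its median was 63.7% in Sham, against 52.2% in MI and 53% in MI-E. Cells with 70 to 90% globin were 326 of 820 in Sham (39.8%), 89 of 319 in MI (27.9%) and 66 of 259 in MI-E (25.5%). Cells with 30 to 50% were 24.9%, 47.3% and 45.2%. No member reached 90%. Since gene number is low in the most haemoglobin-rich cells (median 380, 373 and 382.5 genes at 70 to 90%), the minimum of 300 genes takes away part of this end. With no gene minimum the members were 1135, 434 and 298, and 52.1%, 39.2% and 31.9% of them were at 70% or more. With no condition on Cd79a these parts were 32.5%, 26.2% and 22.9%, closer to each other.

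**Figure D2:**
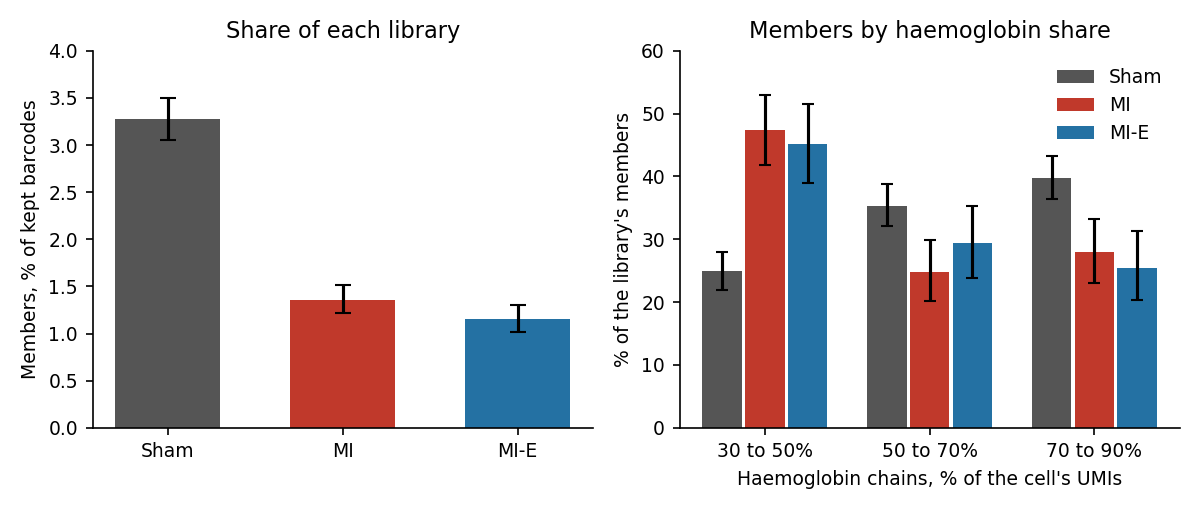
Left, haemoglobin-rich erythroblasts as % of kept barcodes in each library. Right, the members of each library split by the globin share of the cell, as % of that library's members. Bars are 1 library each and error bars are exact 95% binomial intervals (counting error only). Sham has the highest share and the most cells at 70 to 90% globin.

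Alpha and beta chains were captured in different proportions. Adult haemoglobin pairs alpha chains (Hba-a1, Hba-a2) with beta chains (Hbb-bs, Hbb-bt). The ratio of alpha to beta UMIs was 0.555 in Sham, against 0.506 in MI and 0.630 in MI-E, and the order of the libraries was the same among cells with 30 to 50% globin (0.542, 0.494 and 0.605). With 3' counting the ratio says nothing of the molar balance of the chains, only that it differed between libraries. Hbb-bs gave 75.4%, 77.4% and 78.1% of beta chain UMIs, and Hba-a1 57.8%, 64.3% and 62.4% of alpha chain UMIs. The 2 copies of each chain are nearly identical, so this split is uncertain. Of the embryonic chains, Hba-x and Hbb-y had 1 or 2 UMIs per library, and Hbb-bh1 and Hbb-bh2 had none. The theta chains were found at low levels, Hbq1b with 205 UMIs in Sham against 68 in each infarct library, and Hbq1a with 32, 9 and 6.

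Across the globin share, the members followed the known order of red cell maturation in every library. These values describe the cells that the globin rule ordered. Genes of heme synthesis stood at 7681, 13170 and 20460 CPM in the Sham cells with 30 to 50%, 50 to 70% and 70 to 90% globin. In MI they stood at 10603, 17750 and 23305, and in MI-E at 11200, 20967 and 23865. Heme genes were lowest in Sham at each step. Genes of S phase, when DNA is copied, ran down from 6358 to 661 in Sham, from 10695 to 391 in MI and from 9844 to 471 in MI-E. Ribosomal protein genes ran down from 147537 to 49104, from 172444 to 60730 and from 121512 to 42916.

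Genes of terminal maturation and organelle clearance made the steepest climb, from 8145 to 51472 in Sham, 6881 to 56072 in MI and 8125 to 61168 in MI-E. Xpo7, a nuclear export receptor used when the erythroid nucleus condenses, went from 772 through 1312 to 11222 CPM in Sham. In MI it went from 422 through 1968 to 13289, and in MI-E from 762 through 4243 to 15630. Bcl2l1, which encodes the survival protein Bcl-xL, went from 170 to 1732, from 128 to 2361 and from 215 to 2991. By contrast, Klf1 and Gata1, the transcription factors that launch the erythroid programme, were low in the most haemoglobin-rich cells: Klf1 stood at 380, 677 and 93.3 CPM in Sham, and Gata1 at 103, 172 and 40.6.

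**Figure D3:**
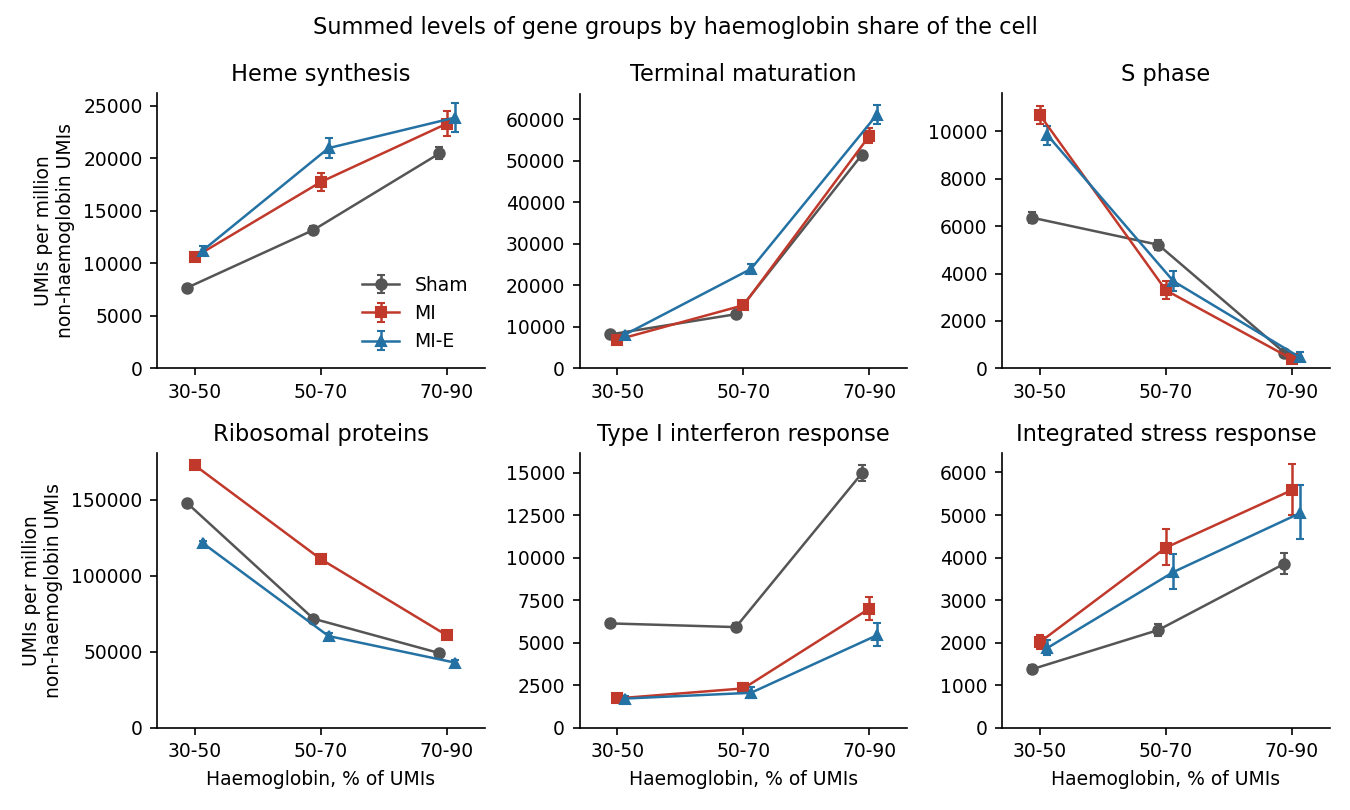
Summed levels of 6 gene groups (vertical axes, CPM of non-haemoglobin UMIs) by the globin share of the cell (horizontal axes, % of UMIs), 1 line per library, with exact 95% Poisson intervals. Heme and terminal maturation genes climb and S phase and ribosomal protein genes decline in all 3 libraries. The interferon line of Sham lies above, and its stress response line below, both infarct libraries at every step. Ppp1r15a, which was level over all members of the 3 libraries, makes up most of the stress response sum.

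Of 2896 genes with a mean of at least 50 CPM in MI and Sham, 188 differed at least 2-fold (6.49%), 95 higher in MI (3.28%) and 93 lower (3.21%). Between MI-E and MI it was 104 of 2956 (3.52%), 57 higher in MI-E (1.93%) and 47 lower (1.59%). Between MI-E and Sham it was 133 of 2924 (4.55%), 76 higher (2.6%) and 57 lower (1.95%). Per 1000000 of all UMIs, globin included, the log2 ratios of MI over Sham and of MI-E over Sham shift by 0.24, and fewer genes reach 50 CPM. The split is then 97 higher and 17 lower for MI over Sham and 49 higher and 10 lower for MI-E over Sham. For MI-E over MI it is 11 higher and 14 lower. With median-of-ratios scaling MI-E over MI gave 41 higher and 60 lower, and MI-E over Sham 57 higher and 80 lower. The order of the 2 counts for MI over Sham and MI-E over MI turned with the setting, at 546 against 663 in cells thinned to 200 UMIs and 914 against 959 at a minimum of 10 CPM. MI and MI-E over Sham share the Sham library, and MI-E over MI shares the MI library with the first.

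Gene lists are given by the median log2 ratio of their genes with at least 10 CPM over the 3 libraries. Over all 6712 such genes the median was 0.025 for MI over Sham, with 52% above a ratio of 1 and 48% below. It was 0.061 for MI-E over MI, with 54.5% above and 45.5% below, and 0.085 for MI-E over Sham, with 55.2% above and 44.8% below.

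**Figure D4:**
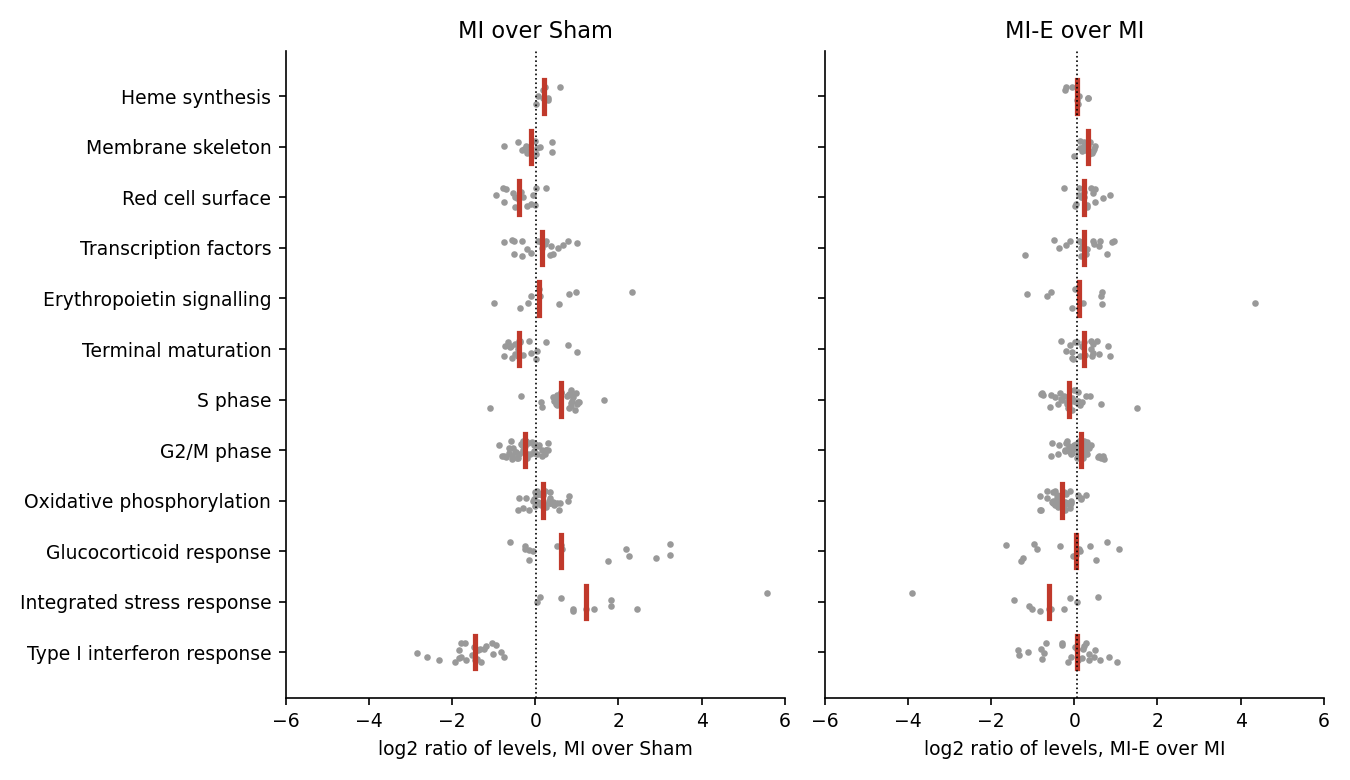
The log2 ratio of levels (horizontal axes) for each gene (grey points) of 12 lists, with the list median (red bar) and the median of all 6712 genes (dotted line), for MI over Sham (left) and MI-E over MI (right). Interferon genes lie left of the line and stress response genes right of it for MI over Sham.

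The 8 enzymes of heme synthesis were all above a ratio of 1 for MI over Sham, by little (median 0.20, 8 of 8 above 1). Alad, the second enzyme, stood at 563 CPM in Sham, against 856 in MI and 745 in MI-E, 1.52-fold higher in MI than in Sham (1.34 to 1.72). Fech, which inserts iron into the porphyrin ring, stood at 1992, 2462 and 3076, 1.24-fold higher in MI than in Sham and 1.54-fold higher in MI-E than in Sham (1.44 to 1.66). Alas2 stood at 3244, 3397 and 3686. Without the members with 10 or more UMIs of other cells' markers, 6 of the 8 were above 1 (median 0.17). When members with 2 or more such UMIs were left out, the median turned to -0.12 and the log2 ratio of Fech to -0.21. Of the 11 genes of heme transport and globin assembly, 5 were above 1 (median -0.13). Tmem14c, which carries porphyrin across the inner mitochondrial membrane, was at 719 CPM in Sham, against 1827 in MI and 777 in MI-E. It was 2.54-fold higher in MI than in Sham (2.31 to 2.80) and 2.35-fold lower in MI-E than in MI (2.05 to 2.70). In all other cells its level was 251, 260 and 230.

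Iron genes did not go one way (median 0.075, 11 of 20 above 1), but single members differed widely. Erfe encodes erythroferrone, the hormone by which erythroblasts lower hepcidin so that more iron enters the blood. It had 3 UMIs in Sham, against 31 in MI and 28 in MI-E, or 2.54, 65.9 and 75.6 CPM. The level was 25.9-fold higher in MI than in Sham (8.07 to 132) and 29.7-fold higher in MI-E than in Sham (9.17 to 153). Erfe was found in 8.15% of the MI members and 8.88% of the MI-E members against 0.366% in Sham, and it had no UMI in cells with 70% globin or more. In all other cells it was at 0.18, 0.471 and 0.584 CPM.

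Tfrc, the transferrin receptor that brings iron in, was higher in both infarct libraries, at 2126, 3425 and 3171 CPM. The ratio of MI to Sham was 1.61 (1.51 to 1.72). Slc25a37, the mitochondrial iron importer mitoferrin 1, ran at 4445, 3660 and 5710, lowest in MI. Ferritin, the iron store, was lower: Ftl1, the ferritin light chain, was at 3719 in Sham, against 2022 in MI and 2291 in MI-E, 1.84-fold lower in MI than in Sham (1.71 to 1.97). Fth1, the ferritin heavy chain, was at 7930, 7249 and 5610. Ncoa4, the receptor that delivers ferritin for breakdown, was at 536, 363 and 553, and Blvrb, which reduces biliverdin, at 3118, 3172 and 2437.

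Of the 10 measured genes of erythropoietin signalling, 6 were above a ratio of 1 for MI over Sham (median 0.094). The receptor Epor stood at 329, 293 and 337 CPM and its kinase Jak2 at 115, 89.2 and 86.3. Under alternative settings the log2 ratio of MI to Sham for Epor ran from -0.85 to 0.10. It was 0.21 in cells with 30 to 50% globin and -0.80 in cells with 50 to 70%. Cish and Pim1, known STAT5 target genes, were higher in both infarct libraries. Of the 10 genes, 4 were below a ratio of 1 for MI over Sham, Bcl2l1 among them. The letters TTCNNNGAA, to which STAT factors are known to bind, occur within 250 bases before the start in 7.02% of all RefSeq promoters. They occur for 0 of the 10 genes of this list with a RefSeq promoter, which says only that these letters are not in this window. AGATAA, a form of the letters that GATA factors bind, occurs in 9.99% of all promoters. It occurs for 1 of the 6 heme synthesis genes with a RefSeq promoter (Alas2) and for 2 of the 9 of the membrane skeleton. Matches on both strands were counted. A gene counted as matched if any of its promoters held the letters, here and below, while the percentages are over promoters. Cish, which dampens the receptor, stood at 6.79, 34.0 and 54.0 CPM from 8, 16 and 20 UMIs, 5.01-fold higher in MI than in Sham (2.02 to 13.5). Pim1, a survival kinase, stood at 570, 843 and 1349, 1.48-fold higher in MI than in Sham (1.30 to 1.68) and 1.60-fold higher in MI-E than in MI (1.40 to 1.83). Outside the members Pim1 was at 141, 144 and 242. Bcl2l1 was at 530, 495 and 769, with an interval for MI over Sham of 0.800 to 1.09, and 1.55-fold higher in MI-E than in MI (1.30 to 1.86). Socs1 in MI-E rested on 1 cell with 15 of 16 UMIs.

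Membrane skeleton genes had a median of -0.098 for MI over Sham (5 of 15 above 1), which was 0.14 per 1000000 of all UMIs. For MI-E over MI it was 0.32 (14 of 15 above 1). Slc4a1 stood at 8291 CPM in Sham, against 7057 in MI and 8816 in MI-E. Per 1000000 of all UMIs its log2 ratio of MI to Sham was 0.0031. Surface genes had a median of -0.39 for MI over Sham (2 of 17 above 1) and 0.23 for MI-E over MI (16 of 17 above 1). Rhd, which carries the Rh antigen, stood at 1952, 1145 and 1239, and Cd47, the signal that keeps macrophages from eating the cell, at 2220, 1697 and 1943. Among cells with at least 50% globin the MI-E over MI median of the surface genes was -0.012. Cd36, a fatty acid carrier chosen here after its values were seen, stood at 1019, 527 and 953.

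Of the 20 erythroid transcription factors, 12 were above a ratio of 1 for MI over Sham (median 0.15), 15 for MI-E over MI (median 0.23) and 17 for MI-E over Sham (median 0.28). Gata1 stood at 115, 181 and 157 CPM and Gfi1b, a repressor needed for erythroid growth, at 50.9, 102 and 116. The ratio of MI to Sham was 1.58 for Gata1 (1.19 to 2.08) and 2.00 for Gfi1b (1.34 to 2.98). Tal1, a partner of Gata1, was highest in MI-E at 455, 588 and 893, and E2f2, which drives the last divisions, at 987, 1317 and 1608. Foxo3, which acts late in maturation, was lowest in MI at 454, 270 and 502. Its level in MI was 1.68-fold lower than in Sham (1.38 to 2.06), and in MI-E 1.86-fold higher than in MI (1.48 to 2.35). In cells with 30 to 50%, 50 to 70% and 70 to 90% globin its log2 ratio of MI to Sham was -0.81, -0.25 and -0.21. That of MI-E to MI was 1.27, 0.97 and 0.24.

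Terminal maturation genes were lower in MI than in Sham (median -0.39, 5 of 22 above 1) and higher in MI-E than in MI (median 0.22, 16 of 22 above 1). Xpo7 stood at 3149, 2418 and 3513 CPM, Ubb, a ubiquitin gene, at 2605, 1663 and 1732, and Trim10, a red cell ubiquitin ligase, at 1400, 1079 and 1417. With the 3 globin classes weighted equally the MI over Sham median was 0.017, and among cells with at least 50% globin it was 0.088. Without the members with 10 or more UMIs of other cells' markers it was -0.49, and without those with 2 or more -0.63. MI had a smaller part of its members at 70% globin or more than Sham, and the part of this in the lower median was not tested.

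S phase genes were higher in MI than in Sham (median 0.62, 29 of 31 above 1), and this too differed with the globin share. Pcna, the sliding clamp of DNA replication, stood at 465, 943 and 839 CPM and Rrm2, which makes deoxynucleotides, at 637, 979 and 1036. In cells with 30 to 50% globin the S phase sum was 6358 in Sham and 10695 in MI, but at 50 to 70% it was 5215 and 3293, and at 70 to 90% 661 and 391. Over cells with at least 50% globin the list median was -0.57. The monocyte markers of the Sham cells at 30 to 50% globin stood beside the first of these differences, and their part in it was not tested. Without the members with 10 or more UMIs of other cells' markers the median over all cells was 0.59. G2/M genes, which run mitosis, were lower in MI over all members (median -0.24, 33 of 43 below 1), but not in every globin class. In cells with 30 to 50% globin the G2/M sum was 25831 in Sham and 28927 in MI. At 50 to 70% it was 46648 and 31627, and at 70 to 90% 9044 and 3127. Scaled to all UMIs, globin included, the list median was -0.0070. The median was -0.41 with the globin classes weighted equally (39 of 43 below 1) and -0.77 among cells with at least 50% globin (42 of 43). Mki67 stood at 4364, 3459 and 3983 and Ube2c at 2282, 1710 and 1776.

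Genes of the type I interferon response were lower in both infarct libraries at every globin step. Rsad2, the antiviral enzyme viperin, stood at 2857 CPM in the Sham erythroblasts, 805 in MI and 909 in MI-E. In all other cells of these libraries its level was 38.7, 6.20 and 4.83, below that of the erythroblasts in each library. Within Sham the level climbed from 929 through 2054 to 8233 along the globin share, within MI from 349 through 590 to 3469 and within MI-E from 303 through 1019 to 3667. A UMI of Rsad2 was found in 72.1%, 41.1% and 42.5% of the members, against 3.77%, 0.918% and 0.871% of cells with 3 or more UMIs of Cd79a. It was 3.55-fold lower in MI than in Sham (3.19 to 3.96).

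Isg15, a ubiquitin-like modifier, stood at 1553, 588 and 343, and climbed along the globin share in Sham from 703 to 3524. It was 2.64-fold lower in MI than in Sham (2.32 to 3.01) and 1.72-fold lower in MI-E than in MI (1.39 to 2.14). Ifitm3, which blocks virus entry, stood at 797, 291 and 310, and Ifi27l2a at 553, 76.5 and 45.9. Ifi27l2a was more abundant in the other cells of Sham, at 1091 CPM. None of the 25 measured genes of the list was above a ratio of 1 for MI over Sham (median -1.45) or for MI-E over Sham (median -1.43). For MI-E over MI the median was 0.056, with 14 of 25 above 1. Of the 14 genes with at least 50 CPM, 13 were at least 2-fold lower in MI than in Sham, beside 3.21% of all genes. The same list in all other cells had a median of -1.15 for MI over Sham. Without the members with 10 or more UMIs of other cells' markers the median was -1.39, with 23 of 25 below 1. Among cells with at least 50% globin it was -1.07, with 22 of 25 below 1.

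The promoters of Rsad2 and Isg15 are shown because both genes carry, close to the start of transcription, the repeat that interferon-induced factors are known to bind. Sequences are from RefSeq, build GRCm38.p6, 150 bases each, on the gene's strand and ending just before the transcription start. Rsad2 is at chr12:26456453-26456602 and Isg15 at chr4:156200819-156200968, both on the minus strand. Capitals mark matches, on either strand, to GAAA, any 2 bases and GAAA again, of which Isg15 has 3 that overlap.
Rsad2: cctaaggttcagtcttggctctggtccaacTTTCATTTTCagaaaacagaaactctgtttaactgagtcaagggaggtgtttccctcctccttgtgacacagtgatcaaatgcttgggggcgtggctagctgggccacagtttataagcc
Isg15: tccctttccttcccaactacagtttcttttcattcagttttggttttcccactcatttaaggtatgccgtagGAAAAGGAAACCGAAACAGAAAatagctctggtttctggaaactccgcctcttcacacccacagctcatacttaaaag
In the 250 bases before the start, the letters occur in 2.98% of all 32851 RefSeq promoters. Of the 25 measured interferon genes, 18 had a promoter in the table and 9 of these held a match: Bst2, Ifi203, Ifit1, Isg15, Oas3, Rsad2, Slfn5, Stat2 and Trim30a. A match describes the letters and was not tested as a binding site.

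Genes of the integrated stress response, in which cells short of amino acids or heme slow translation and make the transcription factor Atf4, were higher in both infarct libraries and highest in MI. All 11 measured genes were above a ratio of 1 for MI over Sham (median 1.21) and for MI-E over Sham (median 0.51). For MI-E over MI 9 of 11 were below 1 (median -0.61). Under the alternatives the MI-E over MI median ran from -0.75 to -0.11. Asns, which makes asparagine, stood at 40.7 CPM in Sham, against 223 in MI and 151 in MI-E. It was 5.48-fold higher in MI than in Sham (3.86 to 7.88) and was found in 4.63%, 24.1% and 14.7% of the members. Without members with 2 or more UMIs of other cells' markers its log2 ratio of MI-E to MI turned to 0.61. Mthfd2, of mitochondrial one-carbon metabolism, stood at 79.7, 185 and 157, and Atf4 itself at 302, 461 and 429. Ppp1r15a, which ends the response and is abundant in erythroblasts, was level over all members at 1673, 1706 and 1786. Under the alternatives its log2 ratio of MI to Sham ran from -0.18 to 0.44. Ppp1r15a made up most of the summed level of the list, which was 2225, 2936 and 2701 CPM.

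Lower members of the list, chosen after their values were seen, were lower in MI-E than in MI. Shmt2, which feeds the one-carbon pathway, stood at 29.7, 104 and 48.6, but its log2 ratio of MI-E to MI was 0.30 in cells thinned to 200 UMIs. Trib3, an inhibitor of Atf4, had 1 UMI in Sham, against 19 in MI and 1 in MI-E, and its level in MI was 47.6 times that in Sham with an interval of 7.57 to 1977. Of the 6 genes of the list with at least 50 CPM, 3 were at least 2-fold higher in MI than in Sham (Asns, Mthfd2 and Shmt2), beside 3.28% of all genes. In all other cells the list median for MI over Sham was 0.087, and Asns there stood at 11.9, 22.9 and 22.2. Without the members rich in other cells' markers the median was 1.33, with 10 of 11 above 1.

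The promoter of Asns (RefSeq, GRCm38.p6, chr6:7693210-7693359, minus strand, 150 bases ending before the start) is shown because it holds the amino acid response element through which Atf4 is known to act. Capitals mark the match to TGATGNAA on either strand.
Asns: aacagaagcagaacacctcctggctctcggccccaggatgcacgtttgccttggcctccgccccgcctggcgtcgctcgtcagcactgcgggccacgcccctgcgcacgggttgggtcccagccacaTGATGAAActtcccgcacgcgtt
These letters occur within 250 bases before the start in 3.45% of all promoters. Among the 10 measured genes of the list with a promoter in the table they occur in 2, Asns and Nupr1.

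Of 15 measured genes known to answer to glucocorticoids, 9 were above a ratio of 1 for MI over Sham (median 0.62), 8 for MI-E over MI (median 0.051) and 13 for MI-E over Sham (median 0.45). The 4 most abundant, Btg1 (304, 198 and 343 CPM), Cxcr4 (166, 149 and 157), Zfp36l2 (141, 119 and 154) and Dusp1 (102, 91.4 and 132), were not higher in MI. Tsc22d3, which encodes the leucine zipper protein GILZ, stood at 22.1, 99.8 and 54.0, 4.53-fold higher in MI than in Sham (2.75 to 7.62). Per1, a clock gene chosen after its values were seen, stood at 8.48, 80.7 and 83.7. In all other cells Tsc22d3 was at 66.7, 101.4 and 103 and Per1 at 12.7, 18.8 and 17.7. Rbm3, an RNA-binding protein induced by mild cold, stood at 479, 1421 and 720, and 506, 1162 and 897 in all other cells.

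Among the further genes with the largest differences between MI and Sham, chosen as 8 in each direction by the bound of the ratio nearest 1, Adam33 stood at 7.63, 95.6 and 43.2 CPM and Noct, which cuts phosphate from NADP(H), at 33.9, 172 and 181. Adam33 had no UMI at 70% globin or more in any library. It was 12.5-fold higher in MI than in Sham (6.05 to 29.1) and Noct 5.07-fold (3.43 to 7.60). Nenf and Acsl5 were also higher in MI, and Ifi27 lower, at 372, 108 and 67.5. Vcan, a marker of monocytes, was on this list too at 30.5, 119 and 146. Of the lower genes, Ccl5, Mcpt8 and Prss34 had 99 of 183, 131 of 214 and 221 of 407 Sham UMIs in 1 cell each. Ccl3 stood at 91.6, 10.6 and 5.4 with 19 of 108 Sham UMIs in 1 cell. Without members with 2 or more UMIs of other cells' markers, the log2 ratios of Ccl5, Prss34 and Ccl3 turned to 0.35, 1.13 and 0.61. That of Mcpt8 kept its direction in every alternative given.

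**Figure D5:**
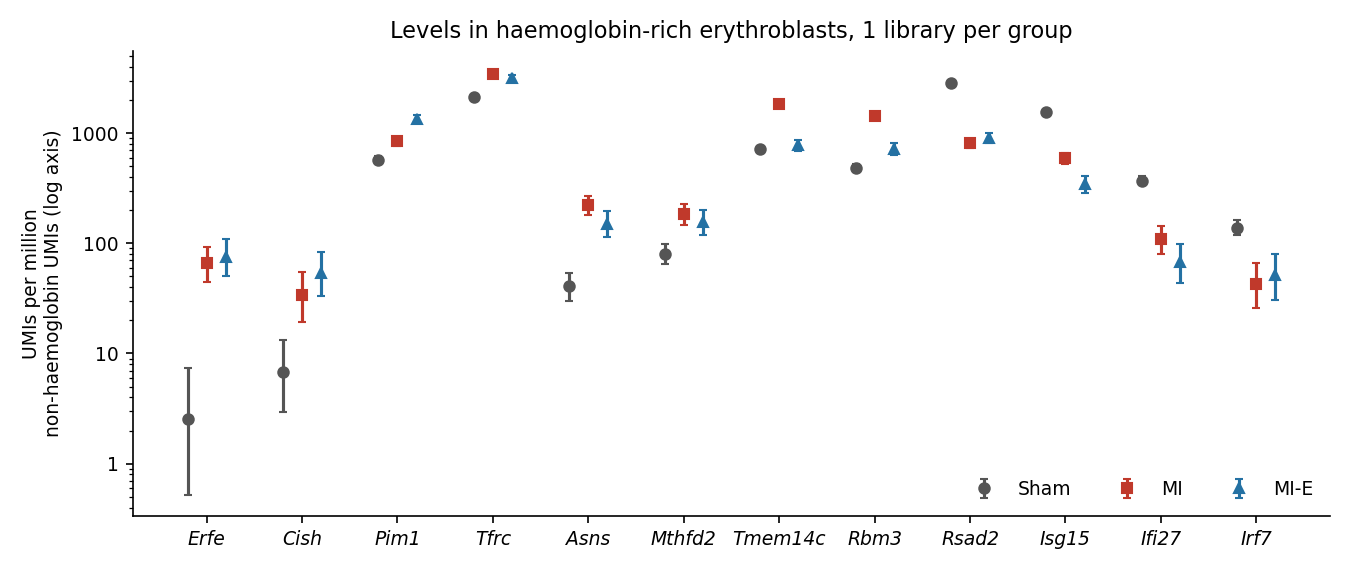
Levels of 12 genes in the haemoglobin-rich erythroblasts (vertical log axis, CPM of non-haemoglobin UMIs) in the 3 libraries, with exact 95% Poisson intervals. Erfe, Cish and Asns are lowest in Sham, Tmem14c and Rbm3 highest in MI, and Rsad2, Isg15, Ifi27 and Irf7 (138, 42.5 and 51.3) highest in Sham. Irf7, an interferon-induced factor, was chosen after its values were seen.

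Between MI-E and MI, several of the genes named by the same rule stood apart in MI from both other libraries. The rule ranked genes by the ratio of MI-E to MI, so it favours genes whose level in the MI library is extreme. Sowaha stood at 511, 212 and 596 CPM and was 2.81-fold higher in MI-E than in MI (2.21 to 3.59). It climbed along the globin share in Sham from 156 to 1521. Acbd5, a peroxisome membrane protein, stood at 90.8, 27.6 and 99.8. In the other direction Nenf stood at 57.7, 195 and 64.8, Zfp672 at 50, 151 and 40.5, Micos13 at 131, 229 and 78.3, Psmd9 at 70.4, 138 and 51.3 and Dynll1 at 309, 474 and 232. These 5 genes were highest in MI, which the choice by this ratio favours. Under the alternatives the log2 ratio of MI-E to MI ran from -3.28 to -0.70 for Zfp672 and from -3.15 to -0.44 for Psmd9. The histone gene Hist1h2ap stood at 1193, 1022 and 2464, and Hist1h1b at 1427, 1309 and 634. All other cells had the same order of libraries for both, at 252, 193 and 605 and at 389, 303 and 174. Saa3, Ccr2, S100a4 and Junb were higher in MI-E too. Ccr2 is one of the monocyte markers. Its UMIs at 30 to 50%, 50 to 70% and 70 to 90% globin were 53, 0 and 2 in MI and 122, 1 and 3 in MI-E. In MI-E 34 of the 74 Saa3 UMIs were in 1 cell, and without the members with 10 or more UMIs of other cells' markers the log2 ratio of S100a4 was -0.49.

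Genes of oxidative phosphorylation, the respiratory chain that mitochondria keep until they are cleared, were above a ratio of 1 in MI over Sham for 28 of 37 (median 0.19) and below it in MI-E over MI for 33 of 37 (median -0.30). Atp5h stood at 907, 1141 and 796 CPM and Cox8a at 867, 1103 and 699. With the 3 globin classes weighted equally 19 of 37 were above 1 for MI over Sham (median 0.021), and among cells with at least 50% globin also 19 of 37 (median 0.068). Under the same settings 29 and 27 of 37 were below 1 for MI-E over MI. In all other cells the medians were 0.047 and -0.079. Ribosomal protein genes ran the same way at each globin step, highest in MI and lowest in MI-E.

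Between MI-E and Sham, the genes named by the same rule and not yet given were Cox6b2, a testis-type subunit of cytochrome oxidase, at 65.3, 204 and 248 CPM, Sept1 at 58.5, 99.8 and 184 and the linker histone H1f0 at 12.7, 57.4 and 146. Id2 stood at 28.0, 38.2 and 108, and among cells with at least 50% globin its log2 ratio of MI-E to Sham was -1.14. The lower ones were the interferon genes Bst2, at 291, 102 and 40.5, and Xaf1, at 98.4, 27.6 and 10.8, beside those named above.

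The remaining lists are given by their medians. For MI over Sham the immediate early genes, which answer to stimulation within minutes, had a median of -0.53, with 1 of 16 above 1. It was -0.34 without the members with 10 or more UMIs of other cells' markers, 0.57 when those with 2 or more were left out, and -0.87 in all other cells. MHC class I genes had a median of -0.30 (3 of 14 above 1) and progenitor genes, which mark earlier stages, -0.18 (2 of 7). Redox and carbonic anhydrase genes stood at 0.092 (9 of 14), glycolysis genes at 0.28 (8 of 12) and heat shock genes at 0.11 (6 of 9). Hypoxia genes stood at -0.011 (3 of 7) and p53 targets at -0.32 (2 of 6). For MI-E over MI the hypoxia genes had a median of 0.83 (6 of 7 above 1) and the p53 targets 0.57 (5 of 6). Only 2 of these hypoxia genes and 4 of the p53 targets had a mean of at least 50 CPM over MI and MI-E. The summed p53 levels of MI and MI-E had overlapping intervals in every globin class, and the hypoxia sums in all but cells with 30 to 50% globin. Neither list was run under the alternatives.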

How the data were processed

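Per the labels, single cells were captured with a 10x Genomics 3' v3.1 kit. Per the submitters' processing notes, Cell Ranger 5.0.1 and the mm10 build were used. The authors deposited raw counts of UMIs per gene and barcode (32285 genes), with no normalization. Kept barcodes had 300 genes and 500 UMIs or more and mitochondrial UMIs of 10% or less. The members and the 24 gene and 13 marker lists (511 of 518 genes matched) were chosen with earlier results of these data known. Doublets were kept, and no caller was run; leaving out members by other cells' markers stands in.

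Counts were summed over members and divided by their UMIs outside the haemoglobin chains, as counts per 1000000 (CPM), since the rule fixes the globin share. Levels have exact Poisson intervals, shares Clopper-Pearson and ratios of levels exact conditional binomial ones, all 95%. Ratios of shares have wider intervals, formed from the opposite bounds of both shares. A level of 0 enters ratios as 3 counts. Genes counted at 2-fold needed a mean of 50 CPM over both libraries, those in list medians 10 over all 3. Named by rule were, per comparison, 8 genes each way whose interval bound lies farthest from 1. Left out of these were globins, S100a8, S100a9, Cd79a, Xist, and antigen receptor, mitochondrial, ribosomal and model genes. A gene was also left out if under 0.5 of its level over all kept cells in both libraries compared. The rule further named the heme, iron, membrane, factor and erythropoietin genes, and up to 4 of the most abundant genes of other lists. Some genes that this rule names are not reported here. With 3' counts, levels are not compared between genes. The scripts were tested on simulated data. The tools were matplotlib 3.10.9, pandas 2.3.3, scipy 1.17.1 and numpy 2.4.6 under Python 3.11.15. Alternatives changed the thresholds, the scaling, the weighting of cells and bins, the depth and the members kept.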

Additional observations from a re-analysis of the deposited data

How the results depend on the processing

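No paired analysis was possible because each group is 1 library. Depth limits single genes, and 52 gene values under alternatives were not given because a library had no UMI of the gene. The lower share in MI and MI-E than in Sham, the lower interferon median and the higher stress response median kept their direction under all alternatives run. Settings on Cd79a, on fewer or no minimum of genes and on 10 or more UMIs of other cells' markers were chosen after seeing the data. The cause of the changes was not tested, except that thinning, smaller sets of members and lower minimums count fewer UMIs a gene, and higher minimums leave fewer genes.

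The log2 share of MI over Sham was -1.27 and became -1.78 at 50% globin or more, -0.66 over barcodes with little S100a8 and S100a9, and -2.04 without members with 2 or more UMIs of other cells' markers, which leaves 298, 68 and 80 cells. MI-E over MI was then 0.29. MI-E over Sham, -1.51, became -1.96 at 50% globin and -1.17 over the smaller denominator. Members at 70% globin or more were 45.8% in Sham with 200 genes, and 52.1%, 39.2% and 31.9% in Sham, MI and MI-E with no gene minimum. With no condition on Cd79a they were 32.5% in Sham.

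Counts of genes at 2-fold for MI over Sham, MI-E over MI and MI-E over Sham were 114, 25 and 59 over all UMIs, 546, 663 and 605 in cells thinned to 200 UMIs, and 324, 301 and 339 at 50% globin or more. They were 630, 560 and 408 without members with 2 or more other marker UMIs, 914, 959 and 819 at a minimum of 10 CPM, and 35, 11 and 18 at 200 CPM. With a barcode minimum of 800 genes MI-E over MI gave 184 and MI-E over Sham 211.

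Of the list medians for MI over Sham, scaling to all UMIs gave membrane 0.14, factors 0.38, G2/M -0.0070, interferon -1.22, oxidative phosphorylation 0.43 and immediate early -0.30. Thinning gave erythropoietin 1.36, S phase 0.88, interferon -1.14 and immediate early -0.30. Equal weight to globin classes gave maturation 0.017, S phase 0.17, G2/M -0.41 and oxidative phosphorylation 0.021. At 50% globin or more, maturation was 0.088, S phase -0.57, G2/M -0.77, interferon -1.07, oxidative phosphorylation 0.068 and immediate early -0.11. Without members with 2 or more other marker UMIs, heme was -0.12, membrane -0.33, surface -0.54, maturation -0.63, S phase 0.89, interferon -0.87, oxidative phosphorylation 0.52 and immediate early 0.57. With no condition on Cd79a, membrane was 0.086 and interferon -1.16.

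For MI-E over MI, thinning gave membrane 0.17, and 50% globin or more gave surface -0.012 and oxidative phosphorylation -0.16. A minimum of 50 CPM gave interferon -0.42. For MI-E over Sham, interferon was -1.19 over all UMIs, -0.92 thinned and -1.16 without members with 2 or more other marker UMIs.

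Single genes that reversed for MI over Sham did so at 50% globin or more (log2 Cpox -0.23, Klf1 -0.35, Rrm2 -1.37, Slc25a37 0.032, Prss34 0.75), over all UMIs (Slc4a1 0.0031) or without members with 2 or more other marker UMIs (Cpox -0.027, Fech -0.21, Ccl3 0.61, Ccl5 0.35, Prss34 1.13). For MI-E over MI they were Junb -0.34 and S100a4 -0.34 at 50% globin, S100a4 -1.44 and Shmt2 0.30 thinned, and Asns 0.61 and S100a4 -0.22 without members with 2 or more other marker UMIs, with S100a4 -0.49 at 10 or more. Id2 for MI-E over Sham was -1.14 at 50% globin.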
